A study of Schizophyllum commune with 6 samples.

Results

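A set of 77 gene models, of 14652 deposited, was high in wild-type strain 12-43 of the split-gill mushroom Schizophyllum commune and low in both other strains of the study. Levels were given as RPKM, the reads of a model divided by its length and by the size of the library. The members were chosen by their RPKM in all 6 libraries. A model was taken when both 12-43 libraries stood at 10 RPKM or more and the lower of them was at least 4 times the highest of the 4 dhc2 and E6 values. The dhc2 and E6 means, with 0.5 added, also had to lie within 2-fold of each other, and models at 0 in both E6 libraries were left out. Since the rule used the values of all 3 groups, the members' levels are a description and carry no test.

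The groups were a knockout of dhc2, a gene for a dynein heavy chain, with mating type A3,5 and B2,2; wild type E6 with A4,6 and B2,1; and wild type 12-43 with A3,5 and B2,2. Each had 2 libraries of mycelium grown at 28 °C on solid CYM medium, the last 3 days on cellophane. The strain labels call all 3 groups monokaryons, whereas the growth protocol speaks of mycelium from a mating interaction. Nothing in the labels says that the replicates came from separate cultures, or from which strain the knockout was made, so every p-value refers to the spread among these libraries alone, which may be technical.

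A monokaryon of this fungus holds nuclei of 1 type. When compatible monokaryons meet they form a dikaryon, whose hyphae carry nuclei of both partners and can build fruiting bodies. Hydrophobins are small secreted proteins that assemble into water-repellent films on aerial hyphae and in the air channels of fruiting bodies. Dynein is the motor that moves nuclei and other cargo along microtubules.

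Of the 7837 models with at least 10 RPKM in both 12-43 libraries, 103 also cleared the 4-fold limit. The limit between dhc2 and E6 removed 23 of these on its own, 12 with dhc2 above E6 and 11 with E6 above dhc2. The drop of models at 0 in E6 removed 2 more, and 1 failed on both counts, which left 77. With the groups exchanged, the same rule gave 108 models high only in dhc2 and 104 high only in E6.

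**Figure D1:**
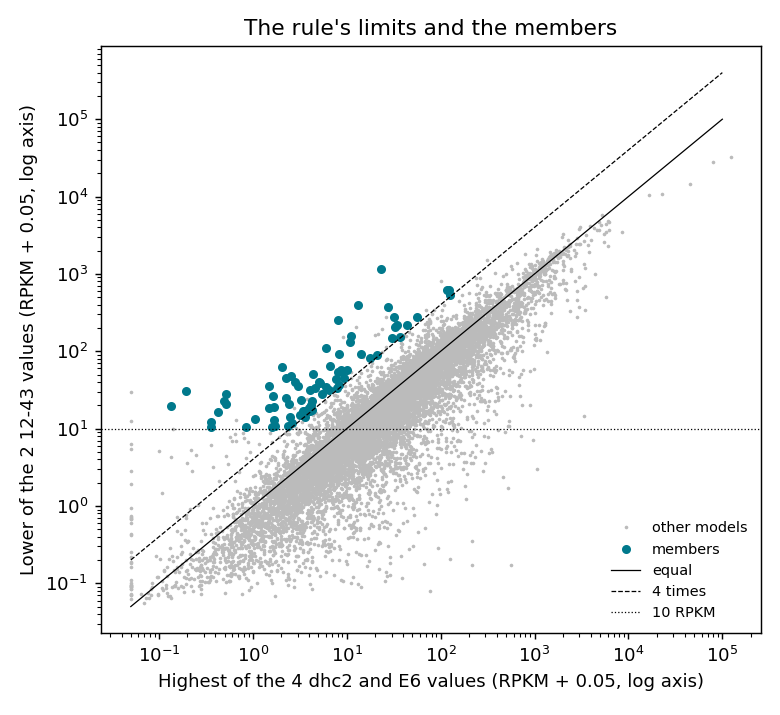
Lower of the 2 12-43 values against the highest of the 4 dhc2 and E6 values for each model above 0 in both 12-43 libraries, both in RPKM + 0.05 on log axes. The 77 members lie above the dotted line at 10 RPKM and above the dashed line at 4 times the highest other value, and grey points in the same corner failed the limit between dhc2 and E6 or the drop of models at 0 in E6.

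The members made up a small share of the RNA. They took 0.0912% and 0.0911% of the recovered reads in dhc2, 0.0908% and 0.0859% in E6, and 0.962% and 0.915% in 12-43. Their median level was 3.46 and 3.56 RPKM in dhc2, 3.50 and 3.55 RPKM in E6, and 38.6 and 35.0 RPKM in 12-43. Over all 12484 models tested in the fit the medians were 21.3 and 21.5, 18.5 and 18.7, and 20.4 and 19.2 RPKM in the same libraries. Members therefore sat below the typical tested model in dhc2 and E6 and above it in 12-43. The rule's limits set much of this order, and the tested models had no such limits. Ranked by RPKM within a library, no member was among the 1000 highest models of any dhc2 or E6 library, and 12 were in each 12-43 library. In these samples of whole mycelium, fewer cells of a type and less RNA per cell cannot be told apart.

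On the log2(RPKM + 0.5) scale the median difference of the members was -3.09 for dhc2 minus 12-43, with a range of -5.94 to -1.90, and -3.18 for E6 minus 12-43, with a range of -6.43 to -1.86. Over all tested models both medians were within 0.01 of 0. All 77 members passed the read filter, and limma called all of them lower in dhc2 and in E6 at an adjusted p under 0.05. Of all tested models 54.9% were called in dhc2, 27.3% lower and 27.6% higher, and 59.5% in E6, 29.0% lower and 30.5% higher. Both comparisons were used by the rule and share the 12-43 libraries, so nothing is read from these counts.

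The quality reports split the libraries in a second way. Their lists of over-represented short sequences (k-mers within reads) held GAAGA in dhc2 (observed over expected 3.03 and 3.07) and in 12-43 replicate 1 (3.00). The lists of E6 and of 12-43 replicate 2 did not hold it. Where GAAGA was not listed no value is given, so those libraries may differ little from the ones that listed it. Within the side that listed it, the median difference of the members was -3.04 and -3.15 for dhc2 replicates 1 and 2 minus 12-43 replicate 1. Within the other side it was -2.98 and -3.25 for E6 replicates 1 and 2 minus 12-43 replicate 2. The rule fixed the sign and the least size of these differences, so they say nothing of the split itself, whose part in the members' levels was not tested.

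**Figure D2:**
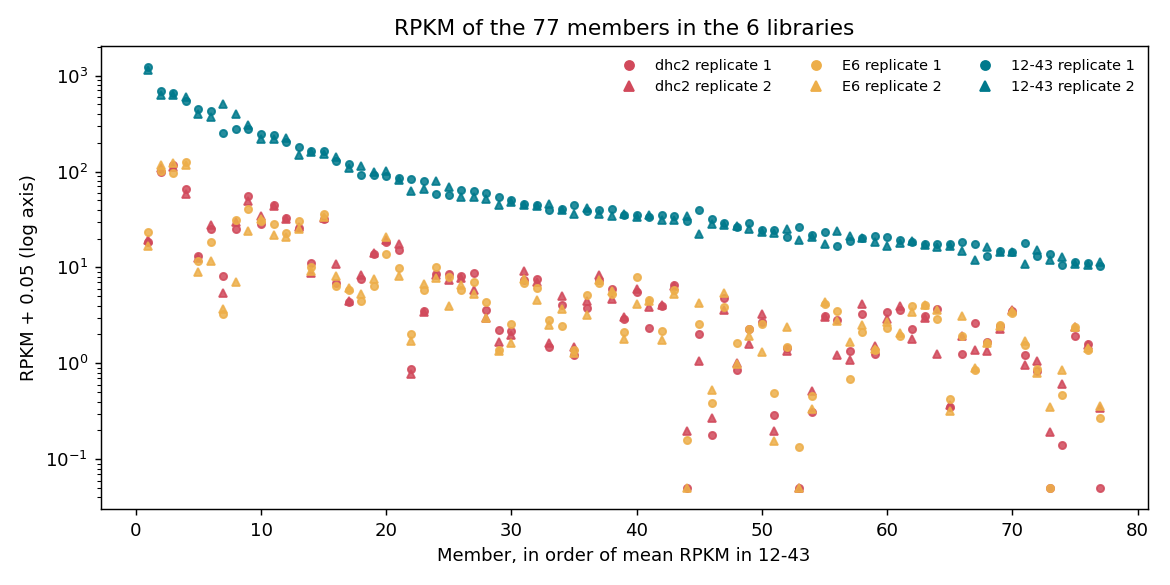
RPKM + 0.05 on a log axis for the 77 members, ordered by mean 12-43 level from left to right, with 1 point per library. The 12-43 points run from 1229 down to 10.4 RPKM, and no dhc2 or E6 point reaches the 12-43 points of its own member.

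SC4 was the only member with a gene symbol. It encodes a hydrophobin known from the dikaryon, where it lines air channels of fruiting bodies. SC4 had 8.08 and 5.37 RPKM in dhc2, 3.23 and 3.66 RPKM in E6, and 251 and 509 RPKM in 12-43. The reads behind these values were 39 and 25 in dhc2, 10 and 16 in E6, and 1186 and 1501 in 12-43. The group means gave a level 56.6-fold lower in dhc2 and 110.4-fold lower in E6 than in 12-43. The libraries of 12-43 did not meet those of the other groups, but differed from each other by 2.03-fold, the widest gap between 12-43 replicates among the 77 members.

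The most abundant member was model 1120462, with a coding length of 1128 nt. It stood at 18.5 and 19.5 RPKM in dhc2, 23.3 and 16.8 RPKM in E6, and 1229 and 1145 RPKM in 12-43. Its level was 62.4-fold lower in dhc2 and 59.3-fold lower in E6, and its replicates in 12-43 lay close together. In 12-43 replicate 1 it ranked 125th by RPKM, against rank 6653 in dhc2 replicate 1 and 6571 in E6 replicate 2. No name is paired with this model in the table used, and its function is not given.

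Model 1215603 combined a high level with a wide gap in the same way. It had 13.1 and 12.4 RPKM in dhc2, 11.6 and 8.90 RPKM in E6, and 448 and 396 RPKM in 12-43, which is 33.2-fold lower in dhc2 and 41.2-fold lower in E6. Model 1039044 had 25.1 and 27.7 RPKM in dhc2, 18.3 and 11.6 RPKM in E6, and 432 and 368 RPKM in 12-43, a level 15.2-fold and 26.8-fold lower. In both models every 12-43 library was far above every other library.

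A further group of abundant members was expressed at sizeable levels everywhere and had a narrow gap. Model 1135584 had 99.3 and 108 RPKM in dhc2, 102 and 118 RPKM in E6, and 699 and 626 RPKM in 12-43. Model 77964 had 116 and 112 RPKM in dhc2, 96.6 and 122 RPKM in E6, and 666 and 624 RPKM in 12-43. For both, the dhc2 and E6 libraries overlapped, and the folds lay between 5.64 and 6.41. Model 1118518 had 65.1 and 58.3 RPKM in dhc2, 125 and 118 RPKM in E6, and 541 and 599.9 RPKM in 12-43. It had the lowest ratio of dhc2 to E6 of all members, 0.510 with 0.5 RPKM added to each mean, just inside the limit.

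Model 1150482 differed widely between the E6 replicates. It had 25.0 and 29.6 RPKM in dhc2, 31.4 and 6.94 RPKM in E6, and 279 and 399.9 RPKM in 12-43. The E6 libraries held 125 and 39 reads of it. Its mean of 19.2 ± 17.3 RPKM in E6 (SD, n = 2) is therefore loosely fixed, and its log2 difference of -4.36 for E6 minus 12-43 had an SE of 0.59, against a median SE of 0.17 over the members.

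**Figure D3:**
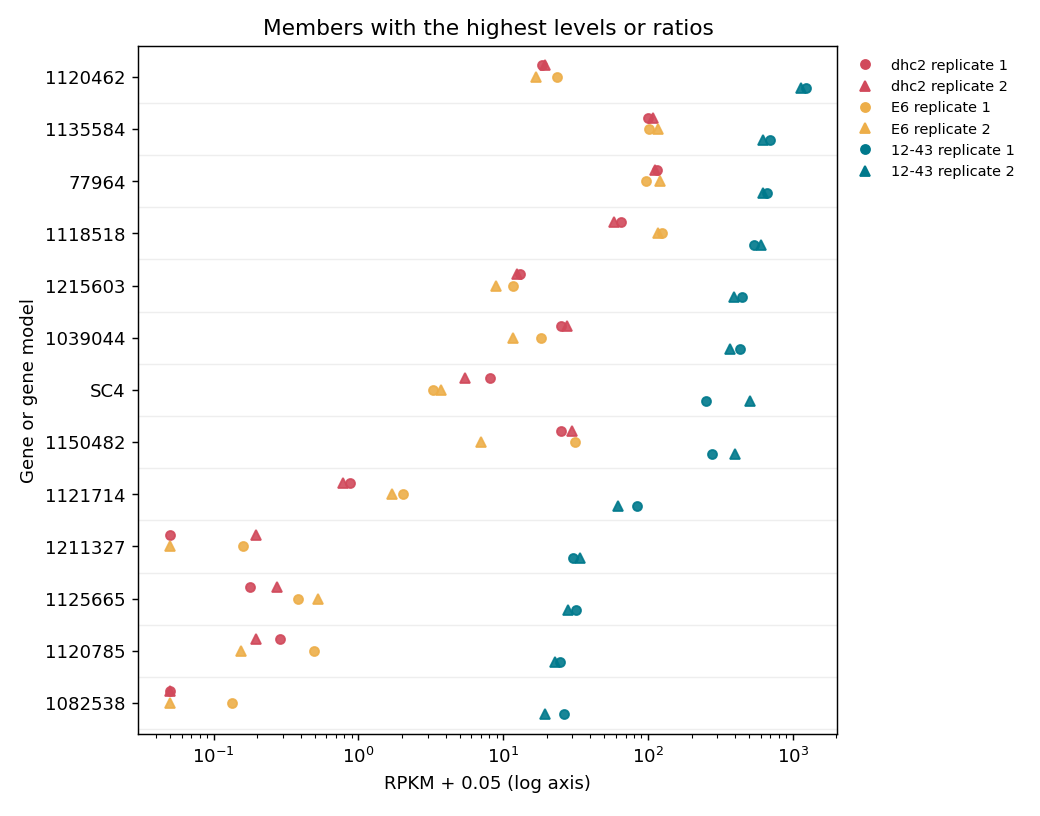
RPKM + 0.05 on a log axis for the members with the 8 highest 12-43 levels or the 8 highest ratios, 1 row per gene, 1 point per library, with values of 0 at the left edge. SC4 and model 1150482 show the widest gaps between the 12-43 replicates in this plot, and models 1211327 and 1082538 have points at 0 in dhc2 and E6.

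How far the members were from silence in dhc2 and E6 differed. In 9 of them every dhc2 and E6 value was under 1 RPKM, in 50 the highest of these values was from 1 to under 10 RPKM, and in 18 it was 10 RPKM or more. The ratio of the lower 12-43 value to the highest other value had a median of 44.2 in the 9, 6.69 in the 50 and 5.78 in the 18. Mean levels in 12-43 ran from 10.9 to 32.1 RPKM, from 10.9 to 380.3 RPKM and from 84.1 to 1187 RPKM in these classes. The members with almost no reads elsewhere thus had none of the highest member levels in 12-43. Their median there was 21.3 RPKM, near the 20.4 and 19.2 RPKM of all tested models. The order of the classes was partly fixed by the rule, which asks more of 12-43 where the other values are higher.

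Model 1082538 had 0 reads in each dhc2 library, 1 and 0 reads in E6, and 478 and 220 reads in 12-43, where it stood at 26.3 and 19.4 RPKM. It was at least 144-fold lower in dhc2, taking 3 reads per library as the limit that a count of 0 allows. For E6 the ratio of 12-43 to E6, in reads per read of the denominator, was 679.6 with an exact 95% binomial counting interval of 122 to 26880.4. Such intervals and floors cover counting error only.

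Model 1211327 had 0 and 2 reads in dhc2, 1 and 0 reads in E6, and 421 and 296 reads in 12-43, or 30.2 and 34.0 RPKM. The ratio of 12-43 to dhc2 was 443 with an exact binomial interval of 122 to 3668, and that of 12-43 to E6 was 698 with an interval of 125 to 27611. Model 1147843 had 0 and 1 reads in dhc2, 0 and 2 reads in E6, and 97 and 53 reads in 12-43. Its ratios were 186 for dhc2, with an interval of 32.8 to 7376, and 73.0 for E6, with an interval of 19.9 to 609. In these models the rule fixed the direction, while the size of the fold is known only within wide limits.

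Models 1125665 and 1120785 had a few reads in every dhc2 and E6 library. Model 1125665 had 0.128 and 0.222 RPKM in dhc2, 0.333 and 0.472 RPKM in E6, and 31.9 and 28.2 RPKM in 12-43. Model 1120785 had 0.237 and 0.147 RPKM in dhc2, 0.443 and 0.105 RPKM in E6, and 24.8 and 22.6 RPKM in 12-43. For model 1120785 the low values rest on 5 and 3 reads in dhc2 and 6 and 2 reads in E6, too few to order those 4 libraries.

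The longest member, model 1121714 with a coding length of 6942 nt, was also low in dhc2 and E6, but its length gave it more reads. It had 0.822 and 0.728 RPKM in dhc2 from 82 and 70 reads, 1.99 and 1.65 RPKM in E6 from 127 and 149 reads, and 83.5 and 62.4 RPKM in 12-43. Its level was 94.2-fold lower in dhc2 and 40.1-fold lower in E6. Both dhc2 libraries were below both E6 libraries, so the low groups were not alike for this model.

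The dhc2 mean was above the E6 mean in 38 members and below it in 39. Both dhc2 libraries exceeded both E6 libraries in 22 members, both E6 libraries exceeded both dhc2 libraries in 15, and the groups overlapped in 40. The same counts over all tested models are not given here, so nothing is read from these. The ratio of the means, with 0.5 added, ran from 0.510 to 1.95 with a median of 0.988, inside the limits of 2-fold that the rule set. At the upper end, model 1129855 had 13.7 and 14.2 RPKM in dhc2, 6.29 and 7.57 RPKM in E6, and 92.9 and 99.0 RPKM in 12-43.

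The highest value outside 12-43 fell in dhc2 replicate 1 for 18 members, dhc2 replicate 2 for 21, E6 replicate 1 for 21 and E6 replicate 2 for 17. No single library set the upper limit of the low groups.

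Replicates of 12-43 were over 1.5-fold apart in 3 members, or 3.90%, where 3.37% of all tested models with at least 10 RPKM in 12-43 were. Besides SC4 these were model 76730, with 39.7 and 22.5 RPKM in 12-43, and model 66632, with 17.8 and 10.8 RPKM. Model 76730 had 1.98 and 0.997 RPKM in dhc2 and 2.53 and 4.18 RPKM in E6, and model 66632 had 1.16 and 0.922 RPKM in dhc2 and 1.49 and 1.66 RPKM in E6. Both were higher in 12-43 replicate 1, whereas SC4 was higher in replicate 2. Replicate 2 gave the lower 12-43 value in 50 members and replicate 1 in 27, with a median log2 difference of -0.08 for replicate 2 minus 1, the same as over all tested models.

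The members' replicates differed more outside 12-43, where the rule kept their levels lower. Replicates were over 1.5-fold apart in 16 members in dhc2 and in 20 members in E6. The same shares over all tested models are not given here, so nothing is read from these counts. The SD of log2 differences between replicates over the members was 0.35 in dhc2, 0.44 in E6 and 0.27 in 12-43. Over all tested models, which were not matched to the members by level, it was 0.22, 0.29 and 0.36 in the same order. Reads behind the members were at least 10 in each dhc2 library for 63 members, at least 10 in each E6 library for 63, and at least 100 in both 12-43 libraries for 67, with 28 as the fewest in any 12-43 library.

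Coding lengths entered the rule only through RPKM, which divides reads by length. They ran from 261 to 6942 nt in the members, with a median of 1128 nt, against a median of 1137 nt over all tested models. Under 600 nt lay 17 of 77 members, or 22.1%, and 19.4% of all tested models. The members thus had lengths much like those of the tested models.

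Just inside the ratio limit lay model 1190505 at 4.0, model 67122 at 4.11 and model 107816 at 4.21 times the highest other value. Just outside it lay model 1187679 at 3.93, model 1143627 at 3.91 and model 1151795 at 3.81. At the RPKM limit the lowest members were model 1341865 with 10.4, model 59384 with 10.5 and model 1279792 with 10.6 RPKM in the lower 12-43 library. Models 1080400 with 9.77, 1169332 with 9.42 and 1138184 with 8.83 RPKM fell short. Model 1080400 was nearly silent in the other groups, with 0.0918 and 0.0476 RPKM in dhc2, 0.0358 and 0.0760 RPKM in E6, and 11.6 and 9.77 RPKM in 12-43. Values on both sides of each limit lay close together.

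The other hydrophobins give the background of SC4. Of 12 hydrophobin genes with a symbol and a value, 9 passed the read filter, and 8 of these were not members. Against 12-43, limma called 6 of the 8 lower in dhc2 and left 2 uncalled, with a median log2 difference of -1.46. In E6 it called 5 lower and 1 higher and left 2 uncalled, with a median of -1.43. Both medians over all tested models were within 0.01 of 0, and the shares of all models called are those given above. Both comparisons share the 12-43 libraries.

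Hyd9 came closest to SC4. It had 2.68 and 2.08 RPKM in dhc2, 0.696 and 0.493 RPKM in E6, and 18.5 and 36.5 RPKM in 12-43, so its lower 12-43 value was 6.90 times the highest other. It was left out because dhc2 was 2.63 times E6 with 0.5 added. In limma it fell by 3.22 on the log2 scale in dhc2 (SE 0.33, adjusted p = 1.71e-04) and by 4.55 in E6 (SE 0.33, adjusted p = 2.66e-05).

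SC1, which like SC4 is known from the dikaryon, had 12.6 and 12.2 RPKM in dhc2, 7.57 and 10 RPKM in E6, and 29.8 and 57.7 RPKM in 12-43. Its ratio of 2.35 kept it out, and limma called it lower in dhc2 (log2 difference -1.71, SE 0.31, adjusted p = 0.00270) and in E6 (-2.11, SE 0.31, adjusted p = 8.86e-04). SC6, the further hydrophobin known from the dikaryon, had 3.49 and 5.04 RPKM in dhc2, 4.28 and 4.54 RPKM in E6, and 2.68 and 3.47 RPKM in 12-43. Neither of its differences was called by limma (adjusted p = 0.164 for dhc2 and 0.0642 for E6), although the E6 difference was without 12-43 replicate 2 (0.0370). Of the 3 genes known from the dikaryon, SC4 and SC1 had their highest values in 12-43 and SC6 had its lowest there.

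SC4, Hyd9 and SC1 were each about as far apart between the 12-43 libraries, replicate 2 being 2.03, 1.98 and 1.94 times replicate 1. The 12-43 libraries lie on different sides of the GAAGA split, and the part of that split in this gap was not tested. In replicate 1, the lower library for all 3 genes, each stood above every dhc2 and E6 library. For SC4 the rule fixed this.

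HYD2 had a stepped pattern, with 0.754 and 2.35 RPKM in dhc2, 16.8 and 12.3 RPKM in E6, and 66.9 and 47.9 RPKM in 12-43. It fell by 4.92 in dhc2 (SE 0.36, limma adjusted p = 3.37e-05) and by 1.86 in E6 (SE 0.36, limma adjusted p = 0.00364), where the call was lost without E6 replicate 2 (adjusted p = 0.0556). SC3, the abundant hydrophobin that coats aerial hyphae, was the one called higher in E6. It had 4842 and 4704 RPKM in dhc2, 21811 and 23009 RPKM in E6, and 10907 and 13868 RPKM in 12-43.

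**Figure D4:**
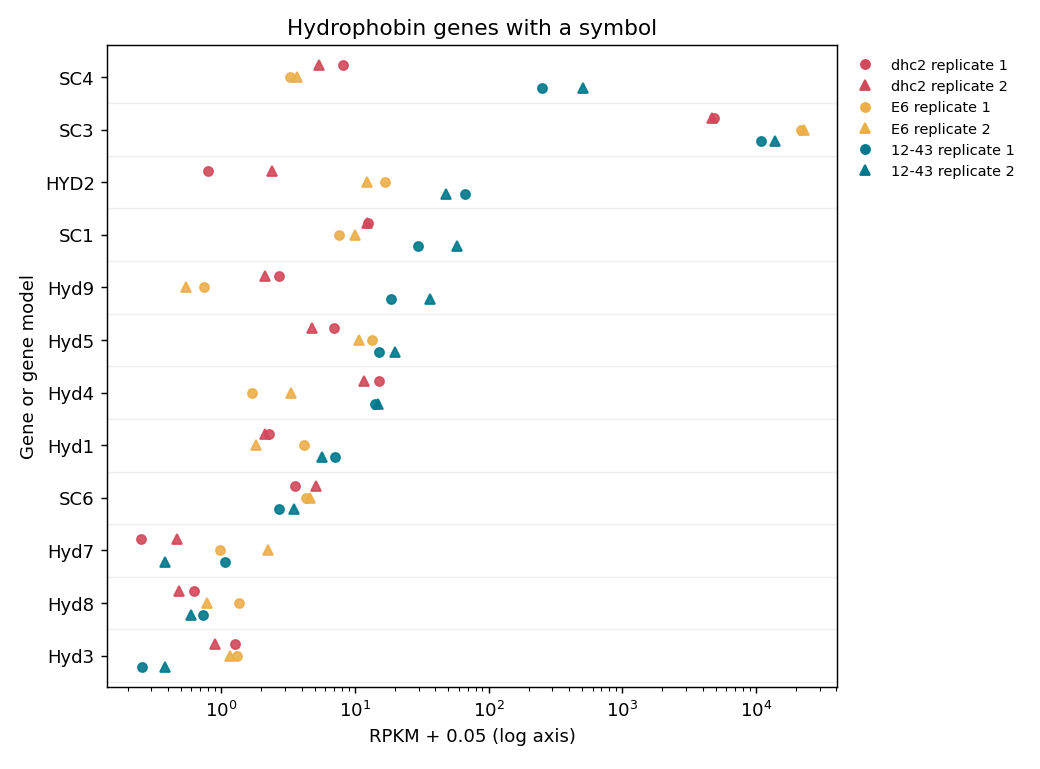
RPKM + 0.05 on a log axis for the 12 hydrophobin genes with a symbol, 1 row per gene, 1 point per library. SC4, HYD2, SC1, Hyd9, Hyd5 and Hyd1 have both 12-43 libraries above all others, Hyd5 and Hyd1 by the narrowest margins, SC3 is highest in E6, and Hyd3, Hyd7 and Hyd8, which did not pass the read filter, stay at 2.21 RPKM or less.

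Of the remaining hydrophobins, Hyd5 was called lower in dhc2 only (log2 difference -1.53, SE 0.23, limma adjusted p = 0.00123), with 6.88 and 4.76 RPKM in dhc2, 13.5 and 10.7 RPKM in E6, and 15.1 and 20 RPKM in 12-43. Hyd4 was called lower in E6 only (-2.32, SE 0.27, limma adjusted p = 2.89e-04), with 15 and 11.6 RPKM in dhc2, 1.65 and 3.26 RPKM in E6, and 14.0 and 14.9 RPKM in 12-43. Whether these effects differ between dhc2 and E6 was not tested. Hyd1 was called lower in both, with 2.22 and 2.09 RPKM in dhc2, 4.09 and 1.78 RPKM in E6, and 7.01 and 5.62 RPKM in 12-43. Its call in E6 (log2 difference -0.99, adjusted p = 0.0281 in limma) was lost with the GAAGA split as a covariate (-0.88, adjusted p = 0.104). Only 12-43 has libraries on both sides of that split, so this fit compares E6 with 12-43 replicate 2 alone. Leaving out 12-43 replicate 1 makes the same comparison and gave -0.88, again without a call. The call was also lost without 12-43 replicate 2 (-1.11) or E6 replicate 2 (-0.48).

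Markers of the labels are set beside these values. The pheromone receptor gene bbr2, named for a B specificity that the labels give to dhc2 and 12-43 but not to E6, had 26.5 and 27.8 RPKM in dhc2, 0.0574 and 0.122 RPKM in E6, and 18.9 and 12.5 RPKM in 12-43. The gene ura1, a transformation marker of this species, had 213 and 214 RPKM in dhc2, 14.7 and 14.2 RPKM in E6, and 7.74 and 10.8 RPKM in 12-43. The level of dhc2 itself is not reported, because no table used here ties a name to its identifier.

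Positions could be followed for few members. In the gene order of RefSeq assembly Schco3, made from strain H4-8, 19 of the 77 members matched an annotated gene. No 2 of them were adjacent. The closest pair, models 112301 and 237183, lay 12 genes apart, and the next closest pair 89 genes apart. SC4 lay 11 genes from SC1. The 19 members had 38 flanking genes, of which 7 had a value, and none of these 7 was a member. Members were 77 of all 14652 models, and so few positions cannot show whether they lie together.

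Of the 7 flanking genes with a value, 6 passed the read filter, and their calls differed. Model 53922, beside member 107816, had 73.7 and 81.1 RPKM in dhc2, 95.8 and 101 RPKM in E6, and 282 and 329 RPKM in 12-43. It was called lower in dhc2 (log2 difference -1.98, limma adjusted p = 1.11e-05) and in E6 (-1.54, limma adjusted p = 3.11e-05). Model 1105701, beside member 79337, had 28.4 and 32.3 RPKM in dhc2, 3.54 and 3.98 RPKM in E6, and 27.0 and 25.8 RPKM in 12-43. It was called lower in E6 (-2.59, limma adjusted p = 4.18e-06) and not called in dhc2 (0.18, limma adjusted p = 0.248). Member 79337 itself had 32.6 and 31.8 RPKM in dhc2, 23.0 and 20.6 RPKM in E6, and 204 and 223 RPKM in 12-43. The flanks of member 77964 went in different directions in dhc2. Model 58521 was called lower in dhc2 (-1.29, limma adjusted p = 4.17e-04) and in E6 (-0.66, limma adjusted p = 0.00937). Model 236380 was called higher in dhc2 (1.58, limma adjusted p = 0.00722) and not called in E6 (0.30, limma adjusted p = 0.491). Model 1189840, beside member 76530, was called lower in dhc2 (-0.62, limma adjusted p = 7.53e-04) and higher in E6 (0.26, limma adjusted p = 0.0315). The E6 call was lost when any single library except E6 replicate 2 was left out (log2 difference 0.23 to 0.27). It was also lost with the replicate block (limma adjusted p = 0.0531) and without scaling (0.130). With the GAAGA split as a covariate it was lost too (0.0726), but that fit again compares E6 with 12-43 replicate 2 alone. Model 1158829, beside member 112301, was called in neither (-0.20, limma adjusted p = 0.485 in dhc2, and -0.30, limma adjusted p = 0.297 in E6). Model 1330984, beside member 59384, did not pass the filter.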

How the data were processed

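Per the labels' protocols, an mRNA-based cDNA library was made from total RNA of each mycelium and sequenced as single reads. The authors deposited RPKM values with a decimal comma, per the file headers, and below them a FastQC 0.9.2 report. TopHat, DESeq and edgeR appear in the submitters' processing notes, without roles. The genome build, annotation, counting rules and use of strand were not given in the sources used here. Consequently, reads of near-identical or overlapping genes may be split in unknown ways.

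The rule was applied to the RPKM as deposited. Low RPKM were whole multiples of a step. From these steps the reads, the denominator of each library and the coding lengths were solved. All 13715 models above 0 came out whole, to within 0.005 reads beyond what rounding allows. Lengths were taken as multiples of 3, the shortest that gave whole reads, and the denominators as those, under the raw reads, at which the recovered reads summed closest to them. Reads and lengths are therefore solved values. The denominators were 8769918 to 14372979 reads, which is 46.0% to 58.7% of the raw reads.

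Contrasts were fitted with limma 3.58.1 (R 4.3.3) on log2(RPKM + 0.5) over all 6 libraries with group as the term and 3 residual degrees of freedom. Libraries were first scaled by the trimmed mean of M values, and p-values were adjusted by Benjamini-Hochberg over 12484 models, at a threshold of 0.05. A model was tested if at least 2 libraries reached 0.744 CPM of the denominator and all libraries together held 15 reads. The scale understates the change of low genes. The reads and fits were also run on simulated data, whose outcomes are not given here. Simulated lengths were multiples of 3 as well, so that run could not test this assumption. The simulated fits changed far fewer models than were called here.

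The members and the gene lists were chosen with earlier results of these data known. Named genes were the members with a symbol, the 8 with the highest 12-43 level, the 8 with the highest ratio, 3 on each side of the ratio and RPKM limits, neighbours on the assembly, all hydrophobins with a symbol and the markers SC1, SC3, SC6, bbr2 and ura1. SC7 and SC14, further genes of the dikaryon, carry no symbol in the table used and were not analysed here. The lists defined by product words could not be applied, because the gene table used here holds no product names. Names came from RefSeq genes (assembly Schco3 of strain H4-8), to which 3636 of 14652 identifiers matched by locus tag.

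Same-numbered libraries of different groups did not deviate together, so replicate numbers were not used as pairs.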

Additional observations from a re-analysis of the deposited data

How the results depend on the processing

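The number of members depended on the rule's limits. With a ratio of at least 8 times it was 32, with 3 times 110, with 20 RPKM 53 and with 5 RPKM 90. After scaling by trimmed means of M values it was 72, all of them among the 77. Leaving out 1 library gave 75 to 87 models, of which 71 to 77 were members. The median log2 difference of the members for dhc2 minus 12-43 became -3.25 when the pseudocount was 0.1, -2.67 when it was 2, and -3.22 by voom on recovered reads, an alternative added after seeing the data. For E6 minus 12-43 a pseudocount of 2 gave -2.74. Models called numbered 4887 to 6617 of 12484 for dhc2 and 6068 to 7192 for E6 when 1 library was left out, against 6853 and 7422 with all. With the replicate block they were 6601 and 7229, and the block changed no call of a named gene except SC6 (adjusted p = 0.0403, gained) and model 1189840 (0.0531, lost), both in E6. Of 608 alternative values of single named members, 75 moved by at least the larger of the replicate spread and the SE. None changed sign, which the rule's 4-fold limit all but fixed. Depth limits the low values: for 1 kb of model, 3 reads correspond to 0.209 to 0.342 RPKM, and levels below that are not told from 0.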

Other observations

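Among the models left out by the limit between dhc2 and E6, model 1038458 had a higher 12-43 level than any member, with 315 and 310.4 RPKM in dhc2, 52.8 and 31.0 RPKM in E6, and 1563 and 1528 RPKM in 12-43. Model 1081190, below the top member in 12-43, had 99.8 and 67.3 RPKM in dhc2, 0.525 and 1.11 RPKM in E6, and 895 and 818 RPKM in 12-43. Model 1189960 ran the other way, with 1.93 and 1.46 RPKM in dhc2, 28.0 and 22.7 RPKM in E6, and 395 and 344 RPKM in 12-43.

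Models 1048102 and 1169312 met every limit but were listed at 0 in all dhc2 and E6 libraries. The 12-43 libraries held 49.1 and 30 RPKM of model 1048102, and 15.3 and 12.4 RPKM of model 1169312.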
